A study of Homo sapiens with 6 samples.

Results

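The axon guidance ligands and receptors examined here were the semaphorins, plexins, neuropilins, ephrins, Eph receptors, netrins, netrin receptors, RGM, Slit and Robo genes of A172 cells. They were taken by symbol from the count tables: protein-coding genes whose symbols start with SEMA, PLXN, EPHA, EPHB, EFNA, EFNB, UNC5, SLIT or ROBO (without the SLITRK genes), with NRP1, NRP2, NTN1, NTN3, NTN4, NTN5, NTNG1, NTNG2, DCC, NEO1, RGMA and RGMB. The rule found 77 of the 19629 protein-coding genes, of which 60 reached a sum of 10 counts over all libraries and were tested. Of the 77, UNC50 and UNC5CL share the start of their symbol with the UNC5 netrin receptors but are not known netrin receptors, and EFNA4-EFNA3 is a read-through transcript of a pair of neighbouring ephrin genes. The A172 line was established from a human glioblastoma. A lentiviral expression plasmid of the pLX317 type carried either RBFOX1, an RNA-binding protein of neurons and muscle, or GFP as the control, and 3 libraries of total RNA were made from each of the stable lines. The methods call them biological replicates and name no clone, and whether each library had its own transduction is not given in the sources used here. The comparison asks how transcript levels differ when RBFOX1 is supplied to glioblastoma cells, and all libraries share the cell line and the viral vector type.

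Axon guidance genes encode secreted or membrane-bound cues and the receptors that read them in the growth cone of a neuron. Semaphorins act through plexins, the secreted class 3 semaphorins mostly through a neuropilin that holds the plexin complex together. Ephrins and Eph receptors signal in both directions between touching cells, netrins act through DCC, neogenin (NEO1) and the UNC5 receptors, RGM proteins bind neogenin, and Slit proteins act through Robo receptors. Glioma cells use the same cues in migration and invasion. RBFOX1 binds RNA at the letters UGCAUG, or the shorter GCAUG, in introns, where it steers splicing, and in 3′ UTRs.

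The letters TGCATG, as the motif reads in DNA, were looked for on the transcript strand of each gene's 3′ UTR, in the canonical transcript of GENCODE v44 on GRCh38. They stood in 29 of the 77 genes (37.7%) and in 22 of the 60 tested genes (36.7%), beside 5131 of the 14049 protein-coding genes tested that have an annotated 3′ UTR (36.5%). Windows of 30 bases are shown for the axon guidance genes that passed the test with a log2 fold change of 1 or more in either direction, because these are the genes on which the results below turn. Of these 14 genes, 5 had TGCATG, at 10 positions, and 9 had none. Among those 9, the shorter GCATG was absent from EPHA2 and ROBO1 and present in the others. The 3′ UTRs were 5001 to 7930 nt long in the genes with TGCATG and 878 to 3073 nt in those without TGCATG. The split thus went with 3′ UTR length, and the part of length in it was not tested. In each line the capitals mark the motif, and the sequence reads 5′ to 3′ on the strand of the gene.
PLXNA2 (chr1:208026916-208026945, minus strand): tgactgctgcttTGCATGaaaactcatttg
PLXNA2 (chr1:208024006-208024035, minus strand): cctcccgtcctcTGCATGgggtcaggtgct
PLXNA2 (chr1:208023235-208023264, minus strand): cacgctgtgtctTGCATGagactcctgggg
PLXNA4 (chr7:132130149-132130178, minus strand): ctcctgaccctgTGCATGtcagcagcaggg
PLXNA4 (chr7:132129893-132129922, minus strand): ggctacacctccTGCATGtggctggagcag
PLXNA4 (chr7:132127137-132127166, minus strand): gggaatttttttTGCATGttggagagagaa
PLXNA4 (chr7:132126479-132126508, minus strand): cgtgtctcccgtTGCATGtctggcttctgc
EPHB2 (chr1:22920140-22920169, plus strand): gagtggcagaatTGCATGcatcaggccttc
SEMA5A (chr5:9041618-9041647, minus strand): ctcacctctcccTGCATGgaggcaacagca
UNC5C (chr4:95166116-95166145, minus strand): aactatcatttgTGCATGctgccatctagt
Genes with the motif stood on both sides: PLXNA4, SEMA5A and UNC5C were higher in RBFOX1 cells, and PLXNA2 and EPHB2 were lower. The motif was present in 4 of the 15 axon guidance genes called higher, 9 of the 22 called lower and 9 of the 23 that did not pass the test. The median 3′ UTR lengths of these sets were 2356, 1402 and 1552 nt, beside 1298 nt over the protein-coding genes tested. A match describes these letters in this window only and is not a measured binding site.

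The 6 libraries held 7433414 to 23249221 counts on genes, and 3 counts, the upper limit taken for a count of 0, corresponded to 1.82 to 5.44 normalized counts. A normalized count is the count of a gene scaled to the mean effective library size. RBFOX1 itself, on chromosome 16, had 4, 0 and 1 counts in the GFP libraries and 10276, 16467 and 21451 counts in the RBFOX1 libraries. GFP replicate 1, the deepest library, differed from the other GFP libraries by a chi-square of 8.9 and 9.07 per degree of freedom over genes, against 1.66 to 3.01 for the other pairs within a group. Among glioma cell markers VIM, CD44 and NES were abundant, whereas AQP4 was at 0 in every library and GFAP and S100B were at or near 0. Of the 12 glioma cell markers 3 were higher, NES, SOX2 and CHI3L1, with log2 fold changes of 0.60, 2.53 and 6.60. The 6 lower ones were TNC (-3.66), SOX9 (-1.14), CD44 (-0.90), VIM (-0.65), OLIG2 (-0.50) and FN1 (-0.34). The summed normalized counts of all 12 markers were 79955 to 80983 in GFP and 52989 to 53714 in RBFOX1 libraries. VIM alone made up 57301 to 62890 and 37325 to 38338 of these sums. The sums of the 8 neuron markers were 3978 to 4301 and 17555 to 19638, NEFL alone making up 3797 to 4128 and 17142 to 19094. MAP2, NEFL and STMN2 were higher, TUBB3 and SYN1 did not pass the test, and SNAP25 was not tested. Of the defining markers, DCX was at 0 and RBFOX3 at or near 0. The sums of the 7 immune and endothelial markers were 28 to 46 and 163 to 176, with PTPRC, PECAM1, CDH5 and VWF higher and CD3E at 0. The part of these differences in the results below was not tested, and in bulk RNA fewer cells of a type and less RNA per cell cannot be told apart.

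Of the 60 tested axon guidance genes, 15 (25%) were higher in RBFOX1 than in GFP cells, 22 (36.7%) were lower and 23 did not pass the threshold of 0.05 on the adjusted p (two-sided quasi-likelihood test of edgeR, p-values adjusted by Benjamini-Hochberg over all 20536 genes tested). Among all genes tested 23.7% were higher and 22.9% lower, and among protein-coding genes 30.3% and 28.8%. The share called higher thus lay near that of all genes and under that of protein-coding genes. The share called lower lay above both, and the difference in shares was not tested. In this comparison 46.7% of all genes were called in either direction, and a larger share of protein-coding genes (30.3% higher and 28.8% lower). With a log2 fold change of 1 or more in either direction, 9 axon guidance genes were higher (15%, against 8.23% of all genes) and 5 lower (8.33%, against 4.48%). The libraries of the groups did not overlap for 39 of the 60 (65%), against 53.4% of all genes. All genes here include those that are not protein-coding. The shares at this fold change and without overlap were not computed for protein-coding genes alone, so an excess over like genes is not shown. The median log2 fold change was -0.05 over the axon guidance genes and 0.01 over all genes, and without RBFOX1 replicate 3 the former was 0.08. Members of a family rose and fell side by side: 6 of the 16 tested semaphorins were higher and 6 lower, 2 of the 9 plexins were higher and 4 lower, and the neuropilins, the tested EphA receptors and the Robo receptors each held 1 gene higher and 1 lower.

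**Figure D1:**
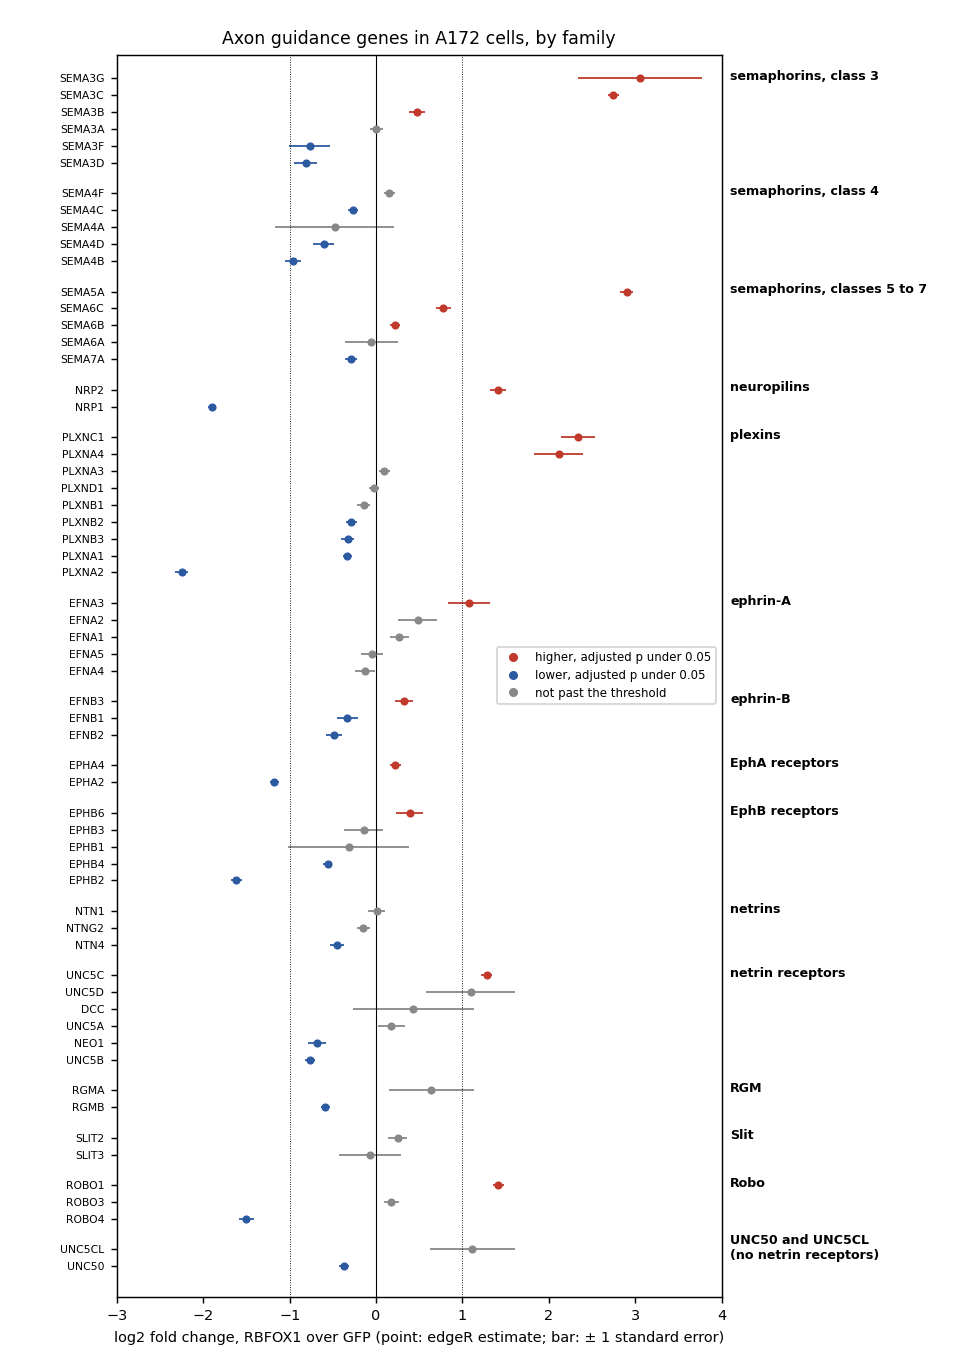
Log2 fold change of each of the 60 tested axon guidance genes, RBFOX1 over GFP, by family (point, edgeR estimate; bar, ± 1 standard error; dotted lines at a log2 fold change of -1 and 1; red, higher; blue, lower; grey, not past the threshold). Families hold members on both sides of 0, with SEMA5A at 2.90 and SEMA3C at 2.75 on the right and PLXNA2 at -2.25 and NRP1 at -1.90 on the left; the fitted value of SEMA3G rests on 3 counts in all GFP libraries together.

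Among the secreted class 3 semaphorins, SEMA3C, SEMA3B and SEMA3G were higher in RBFOX1 cells, SEMA3D and SEMA3F were lower, and SEMA3A did not pass the test. SEMA3C (ENSG00000075223, chr7:80742538-80922359, minus strand), which binds both neuropilins, had 1095, 997 and 1123 normalized counts in the GFP libraries and 6865, 7748 and 7028 in the RBFOX1 libraries. Every RBFOX1 library lay above every GFP library. The log2 fold change was 2.75 with a standard error of 0.0599, a 6.72-fold rise (adjusted p = 6.98e-18). SEMA3B, also secreted, rose less, with a log2 fold change of 0.47 (adjusted p = 3.38e-04). SEMA3G had 0, 2 and 1 counts in the GFP libraries and 4, 7 and 10 in the RBFOX1 libraries. It was thus at or under the limit of 3 counts in every GFP library and above it in every RBFOX1 library (adjusted p = 0.00141). The mean of the RBFOX1 libraries was 2.85-fold that limit in the GFP libraries. This value is not a lower bound, because it leaves out the counting error of the RBFOX1 libraries and of GFP counts above 0. SEMA3D fell by 0.81 on the log2 scale (adjusted p = 3.35e-05), from 108, 113 and 112 to 63.5, 67.7 and 58.4 normalized counts. SEMA3F fell by 0.77 (adjusted p = 0.0106), and its call was lost without RBFOX1 replicate 3 and under DESeq2, with adjusted p values of up to 0.108. SEMA3A, the classical growth cone collapsing factor, had 508, 521 and 538 normalized counts in GFP and 562, 537 and 479 in RBFOX1 libraries. These ranges overlapped, and the log2 fold change of 0.00 had a standard error of 0.0727 (adjusted p = 0.979). SEMA3E had at most 2 counts in any library and was not tested.

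Of the 10 tested semaphorins outside class 3, which are membrane-bound, 3 were higher, 4 were lower and 3 did not pass the threshold. SEMA5A (ENSG00000112902, chr5:9035033-9546075, minus strand), a transmembrane protein with thrombospondin repeats, had 111, 117 and 120 normalized counts in the GFP libraries and 867, 844 and 876 in the RBFOX1 libraries. The groups were far apart and the libraries of each close together, at a log2 fold change of 2.90 with a standard error of 0.0776 (adjusted p = 1.25e-16). SEMA6C rose by 0.78 on the log2 scale (adjusted p = 2.30e-07) and SEMA6B by 0.22 (adjusted p = 0.00348). Of the 5 tested class 4 semaphorins none passed the threshold as higher and 3 were lower, where 22.9% of all genes were, namely SEMA4B with a log2 fold change of -0.96 (adjusted p = 4.92e-08), SEMA4D with -0.61 (adjusted p = 4.29e-04) and SEMA4C with -0.26 (adjusted p = 6.96e-04). SEMA4D is the ligand of plexin B1 and SEMA4C that of plexin B2. SEMA7A, which is anchored to the membrane by a lipid and binds plexin C1, fell by 0.29 (adjusted p = 0.00132). SEMA4A, SEMA4F and SEMA6A did not pass the threshold, and SEMA4G, SEMA5B and SEMA6D had at most 3 counts in any library and were not tested.

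The neuropilins moved in opposite directions. NRP1 (ENSG00000099250, chr10:33177492-33336262, minus strand), a co-receptor of class 3 semaphorins and of VEGF-A, had 14884, 16216 and 15480 normalized counts in the GFP libraries and 4165, 4208 and 4102 in the RBFOX1 libraries. The RBFOX1 libraries lay close together and far below the GFP libraries, at a log2 fold change of -1.90 with a standard error of 0.0496 (adjusted p = 8.62e-17). NRP2 (ENSG00000118257, chr2:205681990-205798133, plus strand) had 123, 124 and 129 normalized counts in the GFP libraries and 348, 308 and 342 in the RBFOX1 libraries. It was higher in every RBFOX1 library, with a log2 fold change of 1.41 and a standard error of 0.0927 (adjusted p = 1.24e-10). NRP2 nonetheless remained the smaller part of the pair, with 0.67% ± 0.03 (SD, n = 3) of the summed neuropilin level per length in GFP and 6.22% ± 0.44 in RBFOX1 cells.

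Of the plexins, which carry the semaphorin signal across the membrane and act on small GTPases inside the cell, the A class included both a large fall and a large rise. PLXNA2 (ENSG00000076356, chr1:208022242-208244384, minus strand) had 1444, 1584 and 1652 normalized counts in the GFP libraries and 374, 323 and 299 in the RBFOX1 libraries. It was lower in every RBFOX1 library, at a log2 fold change of -2.25 with a standard error of 0.0773 (adjusted p = 6.08e-15). PLXNA4 (ENSG00000221866, chr7:132123340-132648688, minus strand) had 9.71, 8.17 and 12.6 normalized counts in the GFP libraries and 59.9, 32.2 and 45.7 in the RBFOX1 libraries. The RBFOX1 libraries were widely spread but all lay above the GFP libraries, at a log2 fold change of 2.11 with a standard error of 0.282 (adjusted p = 2.94e-06). PLXNC1 (ENSG00000136040, chr12:94148577-94307675, plus strand), the receptor of SEMA7A, had 15.8, 17.5 and 15.8 normalized counts in the GFP libraries and 78, 96.6 and 74 in the RBFOX1 libraries. It was higher in every RBFOX1 library, with a log2 fold change of 2.34 and a standard error of 0.197 (adjusted p = 4.82e-09). Plexin C1 is also found on leukocytes. Of the 4 leukocyte markers in the list, PTPRC had 11.7 to 23.1 normalized counts in GFP and 49 to 67.6 in RBFOX1 libraries, CD14 and CD68 did not pass the threshold (log2 fold changes of -0.90 and -0.12) and CD3E was at 0 in every library, and their part in the PLXNC1 result was not tested.

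PLXNA1, the most abundant plexin per length, had 4911, 4991 and 5310 normalized counts in the GFP libraries and 4277, 3788 and 4001 in the RBFOX1 libraries. The groups did not overlap, yet the fall was small, with a log2 fold change of -0.34 and a standard error of 0.0526 (adjusted p = 2.22e-05). PLXNB2 and PLXNB3 fell to a like extent, by 0.29 and 0.33 on the log2 scale (adjusted p = 0.00135 and 0.00125). PLXNA3, PLXNB1 and PLXND1 did not pass the threshold, with log2 fold changes of 0.10, -0.15 and -0.02 and standard errors of 0.0658, 0.0706 and 0.0536. PLXND1, the receptor of SEMA3E, had 2700, 2903 and 3101 normalized counts in GFP and 2811, 2918 and 2812 in RBFOX1 libraries, so that the RBFOX1 libraries lay inside the GFP range.

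**Figure D2:**
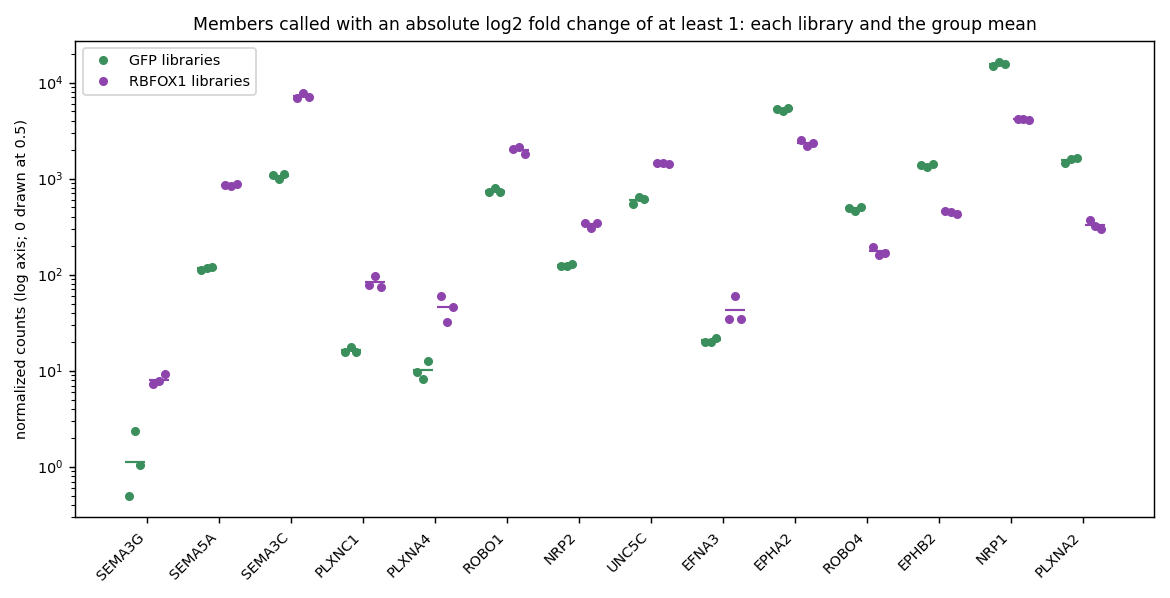
Normalized counts in each library (points) and group means (lines), on a log axis, for the 14 axon guidance genes past the threshold with a log2 fold change of 1 or more in either direction (green, 3 GFP libraries; purple, 3 RBFOX1 libraries; a count of 0 is drawn at 0.5). In none of them do the libraries of the groups overlap, which nearly follows from their choice by difference in these same libraries. NRP1 spans 4102 to 16216 normalized counts at one end of the scale while SEMA3G stays under 10 at the other.

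EPHA2, EPHB4 and EPHB2, which stood highest among the Eph receptors per length in GFP cells, were lower in RBFOX1 cells. EPHA2 (ENSG00000142627, chr1:16124337-16156069, minus strand), the ephrin-A receptor tyrosine kinase that is often high in glioblastoma, had 5327, 5094 and 5472 normalized counts in the GFP libraries and 2507, 2206 and 2324 in the RBFOX1 libraries. Every RBFOX1 library lay below every GFP library, with a log2 fold change of -1.18 and a standard error of 0.0533 (adjusted p = 3.77e-13). EPHB2 (ENSG00000133216, chr1:22710839-22921500, plus strand), an ephrin-B receptor studied in glioma invasion, had 1370, 1315 and 1420 normalized counts in the GFP libraries and 464, 449 and 429 in the RBFOX1 libraries. It fell by 1.62 on the log2 scale with a standard error of 0.0622 (adjusted p = 3.20e-14), again without overlap. EPHB4, the receptor of ephrin-B2, had 2022, 1944 and 1990 normalized counts in GFP and 1339, 1285 and 1413 in RBFOX1 libraries. Its log2 fold change was -0.56 with a standard error of 0.0528 (adjusted p = 2.59e-08). EPHA4, which binds ephrins of both classes, was 0.22 higher on the log2 scale (adjusted p = 0.00903, and 0.0577 without GFP replicate 3). EPHB6, which lacks kinase activity, had a log2 fold change of 0.39 at an adjusted p of 0.0468, which ran from 0.0337 to 0.26 over the alternatives and missed the threshold in 9 of them, including each of those without a GFP library. EPHB1 and EPHB3 did not pass the threshold, and the remaining 7 EphA receptors, EPHA1, EPHA3, EPHA5, EPHA6, EPHA7, EPHA8 and EPHA10, had at most 3 counts in any library.

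Of the 8 tested ephrins, the membrane-bound ligands of these receptors, 2 were higher, 2 lower and 4 did not pass the threshold. EFNA3 (ENSG00000143590, chr1:155078837-155087538, plus strand) had 20, 19.9 and 22.1 normalized counts in the GFP libraries and 34.5, 60 and 34.7 in the RBFOX1 libraries. RBFOX1 replicate 2 stood above the others of its group, and all 3 lay above the GFP libraries, at a log2 fold change of 1.08 with a standard error of 0.246 (adjusted p = 0.00115). Without RBFOX1 replicate 2 the log2 fold change of EFNA3 was 0.75 (adjusted p = 0.0229), which is under 1. EFNA4, the most abundant ephrin-A per length over all libraries, had a log2 fold change of -0.13 with a standard error of 0.114 (adjusted p = 0.385) over 131, 130 and 117 normalized counts in GFP and 120, 117 and 111 in RBFOX1 libraries, which overlapped. Both genes overlap the read-through EFNA4-EFNA3 on the same strand, which had 0 counts in every library, so reads shared between these annotations could have been left out of either gene and their levels are uncertain. EFNA1, EFNA2 and EFNA5 did not pass the threshold.

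All 3 ephrin-B genes were called, in different directions. EFNB2 had 310, 326 and 315 normalized counts in the GFP libraries and 239, 249 and 195 in the RBFOX1 libraries, a fall of 0.49 on the log2 scale with a standard error of 0.0942 (adjusted p = 2.22e-04). EFNB3, the most abundant ephrin-B per length over all libraries, had 165, 146 and 169 in GFP and 205, 178 and 220 in RBFOX1 libraries, with a log2 fold change of 0.33 and a standard error of 0.106 (adjusted p = 0.0153). The EFNB3 groups did not overlap, but its adjusted p was 0.0661 without GFP replicate 2, 0.126 without RBFOX1 replicate 3 and 0.0778 with DESeq2. EFNB1 had 163, 134 and 152 in GFP and 120, 103 and 135 in RBFOX1 libraries, which overlapped by a single library of each group, with a log2 fold change of -0.33 and an adjusted p of 0.0305 that rose to as much as 0.195 and missed the threshold in 5 alternatives, without GFP replicate 1 or 3, without RBFOX1 replicate 1 or 2 and with DESeq2.

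Netrins were expressed at low to moderate level and the receptors for them moved apart. NTN4, a laminin-related netrin of basement membranes, had 399, 371 and 371 normalized counts in GFP and 314, 268 and 268 in RBFOX1 libraries, with a log2 fold change of -0.45 and a standard error of 0.0835 (adjusted p = 1.50e-04). NTNG2, a lipid-anchored netrin-G and the most abundant of the family per length over all libraries, had 425, 420 and 426 in GFP and 370, 373 and 401 in RBFOX1 libraries. The NTNG2 groups did not overlap, while its log2 fold change of -0.15 missed the threshold (standard error 0.072, adjusted p = 0.107). NTN1, the classical floor plate cue, had 162, 185 and 189 in GFP and 185, 185 and 165 in RBFOX1 libraries (log2 fold change 0.01, adjusted p = 0.969). NTN3, NTN5 and NTNG1 had at most 3 counts in any library.

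UNC5C (ENSG00000182168, chr4:95162504-95549206, minus strand), a netrin receptor of the repulsive and death-inducing class, had 550, 638 and 616 normalized counts in the GFP libraries and 1462, 1470 and 1423 in the RBFOX1 libraries. It rose by 1.28 on the log2 scale with a standard error of 0.0626 (adjusted p = 1.26e-12). UNC5B, the most abundant netrin receptor per length over all libraries, had 1349, 1468 and 1492 in GFP and 867, 837 and 834 in RBFOX1 libraries, with a log2 fold change of -0.76 and a standard error of 0.0582 (adjusted p = 1.16e-09). Neither gene overlapped between the groups, so that per length UNC5B made up 65.9% ± 0.44 (SD, n = 3) of the netrin receptor level in GFP and 40.9% ± 0.82 in RBFOX1 cells, and UNC5C 17.6% ± 0.51 and 45% ± 0.77. NEO1, which serves netrins and RGM proteins, fell by 0.68 (adjusted p = 1.29e-05), from 261, 279 and 301 to 200, 178 and 153 normalized counts. RGMB, a neogenin ligand and a co-receptor of bone morphogenetic proteins, fell likewise, from 2045, 2012 and 2032 to 1328, 1341 and 1383 (log2 fold change -0.59, standard error 0.0496, adjusted p = 5.38e-09). UNC5A, UNC5D, DCC and RGMA did not pass the threshold, DCC at 1.05 to 4.57 normalized counts. Of the genes caught by their symbol alone, UNC50 had 931, 912 and 907 normalized counts in GFP and 677, 743 and 699 in RBFOX1 libraries (log2 fold change -0.37, adjusted p = 3.00e-05), and UNC5CL did not pass the threshold. Without them 15 of 58 tested genes were higher and 21 lower.

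Of the Robo receptors, ROBO1 was higher and ROBO4 lower in RBFOX1 cells. ROBO1 (ENSG00000169855, chr3:78597239-79767998, minus strand), a receptor of Slit proteins in commissural axons, had 719, 793 and 723 normalized counts in the GFP libraries and 2042, 2111 and 1803 in the RBFOX1 libraries. It was higher in every RBFOX1 library, with a log2 fold change of 1.42 and a standard error of 0.0652 (adjusted p = 4.94e-13). ROBO4 (ENSG00000154133, chr11:124883691-124898500, minus strand), known best from endothelial cells, had 498, 462 and 506 in the GFP libraries and 196, 161 and 168 in the RBFOX1 libraries. It was lower in every RBFOX1 library, with a log2 fold change of -1.50 and a standard error of 0.0877 (adjusted p = 1.85e-11). The endothelial markers PECAM1, CDH5 and VWF were higher in RBFOX1 cells, and their part in the ROBO4 result was not tested. PECAM1 had 5.84 to 8.43 normalized counts in GFP and 55.7 to 74.4 in RBFOX1 libraries. ROBO4 took 40.3% ± 1.64 (SD, n = 3) of the Robo level per length in GFP and 10.4% ± 0.91 in RBFOX1 cells, and ROBO1 36.8% ± 2.35 and 70.8% ± 2.80. ROBO3 missed the threshold with a log2 fold change of 0.18 (adjusted p = 0.103, and 0.0363 without RBFOX1 replicate 2), and ROBO2 was at 0 in every library.

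Of their ligands, SLIT2 had 245, 239 and 267 normalized counts in the GFP libraries and 330, 338 and 238 in the RBFOX1 libraries. RBFOX1 replicate 3 lay just under all GFP libraries while the other two lay above them, and the log2 fold change of 0.25 missed the threshold (standard error 0.111, adjusted p = 0.0753). Without RBFOX1 replicate 3 the log2 fold change was 0.42 (adjusted p = 0.00167), and with no filter on low counts the adjusted p was 0.0424. SLIT3 had 7.3 to 16.7 normalized counts and did not pass the threshold, and SLIT1 had at most 2 counts in any library.

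**Figure D3:**
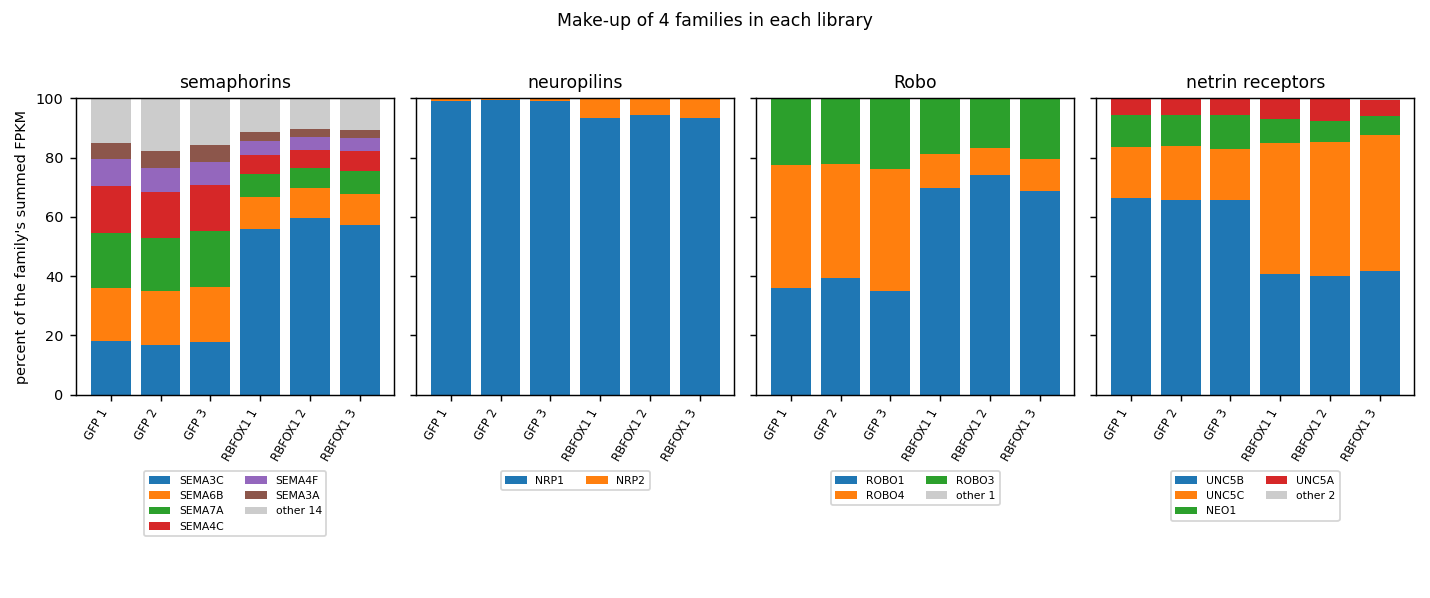
Percent of the summed FPKM of a family (y axis) taken by its most abundant members in each of the 6 libraries (x axis), for semaphorins, neuropilins, Robo receptors and netrin receptors. Libraries of a group resemble one another, and between groups SEMA3C goes from 17.5% to 57.7% of the semaphorin level, ROBO1 from 36.8% to 70.8% of the Robo level and UNC5C from 17.6% to 45% of the netrin receptor level.

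Levels were compared between genes per length, as counts per kilobase of merged exons, scaled to library size (FPKM). The exon lengths were those of GENCODE v44, while the authors counted reads on an earlier Ensembl annotation, so close ranks between genes are uncertain. In GFP cells NRP1, at 97.1 ± 4.17 FPKM (SD, n = 3), and EPHA2, at 92.2 ± 3.32, stood above all other axon guidance genes, with library ranges of 93.1 to 101 and 88.6 to 95.2 that overlapped. PLXNA1 (32.5 ± 1.36), PLXNB2 (29.9 ± 3.43) and UNC50 (29.6 ± 0.41) followed, and the ranges of EPHB4, RGMB and PLXND1 at about the same lower level overlapped too. SEMA3C ranked 12 with 12.7 ± 0.78 FPKM, beside SEMA7A and SEMA6B, whose ranges it overlapped. In RBFOX1 cells SEMA3C was at the top with 85.2 ± 5.55 FPKM, and its lowest library, at 81.1, lay above the highest library of EPHA2, at 43.6. EPHA2 came next with 40.8 ± 2.64, and NRP1, at 26.0 ± 0.33, and PLXNA1, at 25.8 ± 1.57, overlapped.

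Summed per family, the semaphorin level was 72.3 ± 2.09 FPKM (SD, n = 3) in GFP and 148 ± 4.78 in RBFOX1 cells. SEMA3C alone took 17.5% ± 0.67 and 57.7% ± 1.91 of it. The summed neuropilin level was 97.8 ± 4.17 and 27.7 ± 0.27, that of the Eph receptors 129 ± 3.76 and 66.6 ± 2.83, and that of the plexins 107 ± 6.85 and 87.9 ± 2.70. In these families the libraries of the groups did not overlap. The ephrin sums, 26.4 ± 0.74 and 26.9 ± 1.11, and the netrin receptor sums, 23 ± 1.37 and 21.8 ± 0.68, overlapped between the groups although single members moved. These sums are a description and were not tested.

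**Figure D4:**
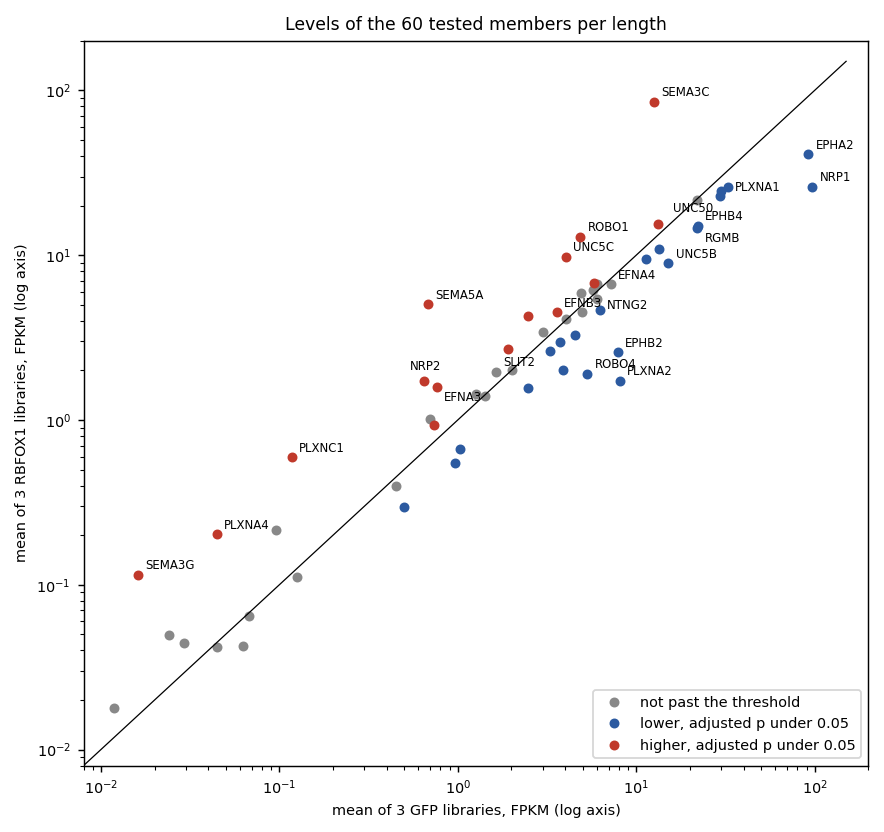
Mean FPKM of the 60 tested axon guidance genes over the 3 GFP libraries (x, log axis) and the 3 RBFOX1 libraries (y, log axis), with the line of equal levels (red, higher; blue, lower; grey, not past the threshold). NRP1 and EPHA2 lie farthest to the right, both under the line, and SEMA3C lies highest, at 12.7 FPKM in GFP and 85.2 in RBFOX1 cells.

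The genes that act inside the cell on guidance signals were read from a fixed list of 56 effectors, such as the collapsin response mediator proteins (CRMP1 and DPYSL2 to DPYSL5) and the srGAP, MICAL and ABLIM proteins. Of 55 tested, 20 were higher, 16 lower and 19 did not pass the threshold, at a median log2 fold change of -0.01 beside 0.01 over all genes. The counts of 20 and 16 of 55 are read against the 23.7% and 22.9% of all genes called in each direction, and the 30.3% and 28.8% of protein-coding genes. SRGAP3, a GTPase-activating protein bound by Robo receptors, had 17, 30.4 and 15.8 normalized counts in GFP and 136, 105 and 112 in RBFOX1 libraries (log2 fold change 2.52, standard error 0.2, adjusted p = 2.09e-09). SRGAP1, of the same family, was lower with a log2 fold change of -0.54 (adjusted p = 4.19e-04), and SRGAP2 was higher with 0.28 (adjusted p = 0.00269). Among the collapsin response mediators, which relay SEMA3A signals to the cytoskeleton, 4 of 5 were higher. DPYSL3 had 10254, 10697 and 10979 in GFP and 29213, 31519 and 31122 in RBFOX1 libraries (log2 fold change 1.52, standard error 0.0498, adjusted p = 3.03e-15), and DPYSL5 rose by 1.53 (standard error 0.0844, adjusted p = 7.61e-12). DPYSL4 and CRMP1 rose by 0.93 and 0.54, while DPYSL2 fell by 0.30. The largest fall in the list was that of ABLIM3, an actin-binding LIM protein, with 1925, 2387 and 2243 in GFP and 455, 395 and 434 in RBFOX1 libraries (log2 fold change -2.35, standard error 0.0789, adjusted p = 4.34e-15). NCK2, an adaptor that links Eph and other receptors to actin, fell by 0.66 (standard error 0.062, adjusted p = 2.31e-08).

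A second list held 20 co-ligands, co-receptors and other partners, including PTPN11, and 17 of the 20 were tested. A single gene, NRCAM, was higher, 9 were lower and 7 did not pass the threshold, at a median log2 fold change of -0.38 beside 0.01 over all genes. Of all genes 23.7% were higher and 22.9% lower, and of protein-coding genes 30.3% and 28.8%, and the difference from these shares was not tested. NRCAM, a cell adhesion molecule that joins neuropilins, had only 15.2 to 18.7 normalized counts in GFP and 27.8 to 45.3 in RBFOX1 libraries (log2 fold change 0.98, adjusted p = 0.00396). DRAXIN, a secreted protein that binds DCC and netrins, had 696, 733 and 709 in GFP and 267, 262 and 272 in RBFOX1 libraries. It fell by 1.41 on the log2 scale with a standard error of 0.0706 (adjusted p = 1.76e-12). MET, the hepatocyte growth factor receptor, which can associate with plexins of the B class, fell by 0.96 (standard error 0.0464, adjusted p = 1.02e-12), from 5279, 5078 and 5057 to 2652, 2601 and 2664. ADAM10, the protease that cuts ephrins, fell by 0.67 (standard error 0.0563, adjusted p = 4.41e-09). The lists are small and were put together with earlier results of these data known.

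**Figure D5:**
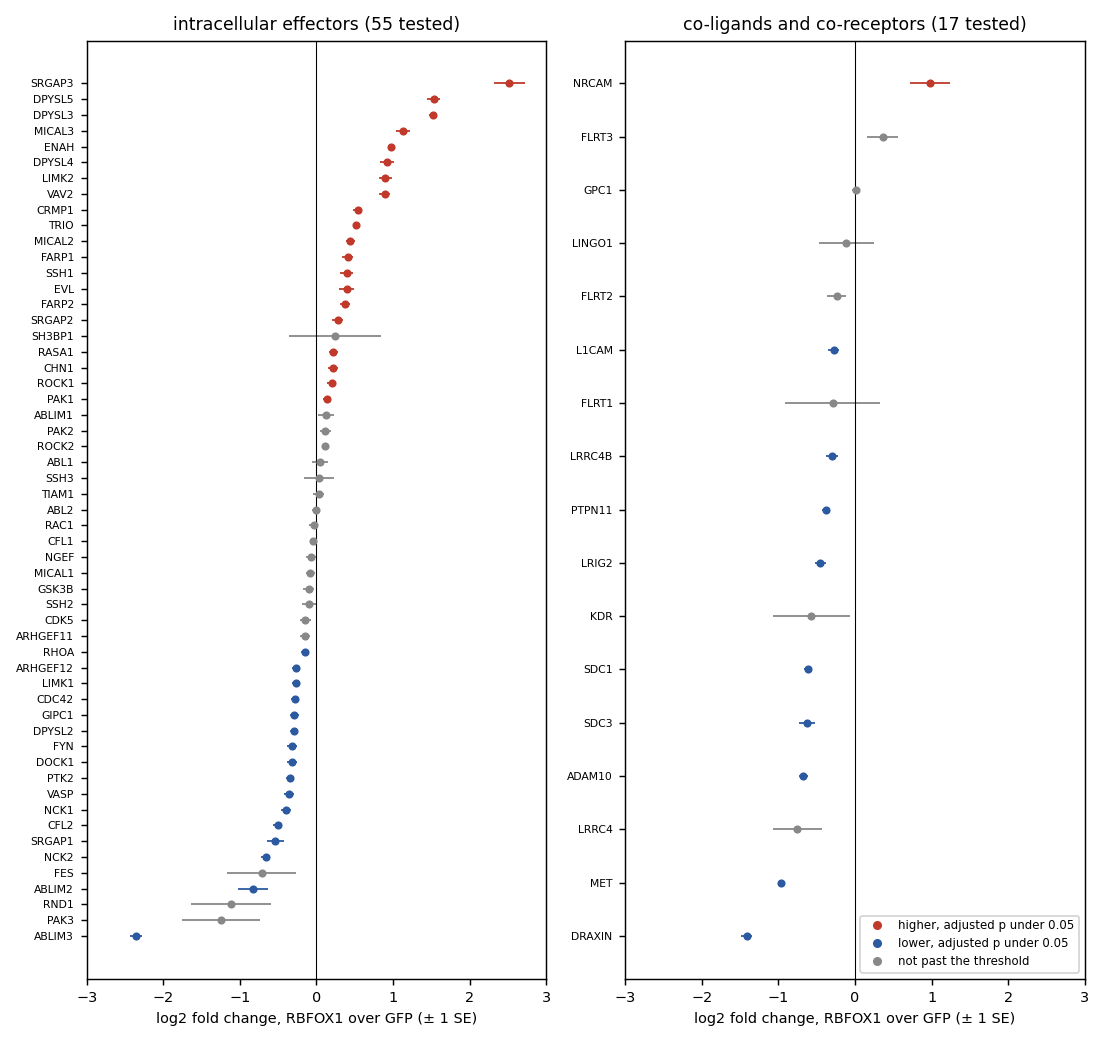
Log2 fold change, RBFOX1 over GFP, of the tested genes of the effector list (55 genes) and of the co-ligand and co-receptor list (17 genes), sorted by value (point, edgeR estimate; bar, ± 1 standard error; red, higher; blue, lower; grey, not past the threshold). The effectors run from ABLIM3 at -2.35 to SRGAP3 at 2.52, while in the other list NRCAM at 0.98 is the only gene in red.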

How the data were processed

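RNA-seq libraries were rRNA-depleted, stranded and paired-end. The authors used HISAT2 to align the reads (GRCh38) and HTSeq to count them per Ensembl gene, strand-aware (reverse) and intersection-strict, and deposited raw counts per gene and library, without normalization. Lines for uncounted reads (38.1 to 48% of a library) were left out. The deposited table of the authors' own DESeq2 comparison (fold changes, p-values) was not used.

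Of the 58051 gene identifiers, 98.1% were found in GENCODE v44, which gave symbols, positions, exon lengths and 3′ UTRs. Counts were scaled by TMM and tested with edgeR 4.0.16 (R 4.3.3; quasi-likelihood, condition as the only term, at least 10 counts summed). The script was tested on simulated data. A common biological coefficient of variation of 0.0542 described the spread. The limit of 3 counts covers counting error only. Alternatives were other scalings and filters, DESeq2 1.42.0, limma-voom (limma 3.58.1), a replicate block, a fold threshold and each library left out. Genes and lists were chosen with earlier results of these data known. Named with full values were members called with a log2 fold change of 1 or more in either direction, the most abundant member of each family per length, members at the limit in a group, and in each list the 3 largest rises and falls called with a mean of at least 50 normalized counts. Other members were named for their role.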

Additional observations from a re-analysis of the deposited data

How the results depend on the processing

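The counts of axon guidance genes called, 15 higher and 22 lower, were 13 to 16 and 20 to 22 under other scalings, other filters, DESeq2 (13 and 20), limma-voom and the replicate block. Leaving out each library in turn gave 13 to 17 higher and 21 to 22 lower, and for the effectors 19 to 20 higher and 15 to 19 lower. With a log2 fold change of 1 or more required the axon guidance genes called were 9 and 5 and the effectors 4 and 1, by construction fewer. The median log2 fold change of the axon guidance genes, -0.05, ran from -0.0820 to 0.0757 when each library was left out, and it was above 0 only without RBFOX1 replicate 3 (0.0757). The cause was not tested. With GCATG in place of TGCATG, 52 of the 77 genes (67.5%) held the motif in the 3′ UTR instead of 29. The shorter motif is part of the longer one. Of the protein-coding genes tested, 8680 of 14049 (61.8%) held GCATG. The median 3′ UTR length was 1854 nt in the 77 genes and 1298 nt in the protein-coding genes tested. No result changed sign among the members named by the rule.

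Replicate numbers did not pair the samples: the deviations of same-numbered libraries from their group means correlated at -0.164, 0.0379 and -0.0539 over 12004 genes. With the replicate block 14 axon guidance genes were higher and 22 lower, and 19 effectors were higher and 16 lower. Among the members named by the rule, EFNB3 (adjusted p = 0.0778 with DESeq2) and SLIT2 (adjusted p = 0.0424 with no filter) were the genes whose call changed. SEMA3G was not tested under edgeR's filterByExpr filter, which removed it. At low counts depth limits what could be seen: 17 of the 77 genes had 3 counts or fewer in every library and were not tested.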

Other observations

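Antisense transcripts of axon guidance genes, counted by strand, were looked at after the values of their host genes had been seen. UNC5C-AS1 (chr4:95549129-95552457, plus strand) starts at the 5′ end of UNC5C, which lies on the minus strand. It had 32.2, 25.7 and 36.9 normalized counts in the GFP libraries and 88.9, 93.3 and 74 in the RBFOX1 libraries, with a log2 fold change of 1.41 and a standard error of 0.176 (edgeR's quasi-likelihood test, adjusted p = 1.31e-06). UNC5C itself had a log2 fold change of 1.28. PLXNB3-AS1 fell by 0.83 on the log2 scale (adjusted p = 4.67e-04), from 65, 66.6 and 73.7 to 47.2, 35.5 and 35.6 normalized counts, beside a fall of 0.33 in PLXNB3. UNC5B-AS1 did not pass the threshold, with a log2 fold change of -0.22 (adjusted p = 0.615), beside -0.76 in UNC5B. Of the other antisense and intronic transcripts of these genes, SLIT3-AS2 had 0, 0 and 1 counts in the GFP libraries and 3, 6 and 8 in the RBFOX1 libraries, while SLIT3 did not pass the threshold. EPHA5-AS1, SEMA3B-AS1, SEMA5A-AS1, SLIT1-AS1 and SLIT3-AS1 were at 0 in every library.

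The class 3 semaphorins SEMA3C (chr7:80742538-80922359), SEMA3A (chr7:83955777-84492724) and SEMA3D (chr7:84995553-85187056) lie on the same arm of chromosome 7 and all on the minus strand. Their log2 fold changes were 2.75, 0.00 and -0.81, a rise, a gene that did not pass the threshold and a fall. SEMA3E (chr7:83363238-83649139, minus strand), which lies between SEMA3C and SEMA3A, had at most 2 counts in any library and was not tested.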
